A study of Homo sapiens with 9 samples.

Results

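The 48 human genes of the PSMA, PSMB, PSMC, PSMD, PSME, PSMF and PSMG families, which encode subunits, activators and assembly factors of the proteasome, were taken by name from 26475 genes measured by RNA sequencing in Hep3B cells. Every row whose symbol is PSM followed by a letter from A to G and a number was a member, and each of the 9 libraries held all 48. Another 6 rows starting with PSM, the meiotic recombination gene PSMC3IP and 5 antisense transcripts, fell outside the rule. Hep3B is an established human liver cancer line, and all 9 libraries came from polyA RNA of Hep3B cells kept under hypoxia for 6 h. A replicated set held 3 libraries with DMSO, the solvent control, and 3 with a compound labelled DHE. A dose set held 1 library each with DMSO, with DHE at a dose labelled high and with DHE at a dose labelled low. Concentrations of DHE are not in those labels. Nothing in the labels says that replicates were separate cultures, so the p-values measure the spread between these libraries, which may be technical.

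The proteasome is the main protease for ubiquitin-tagged proteins in the cytosol and nucleus. Its 20S core is a barrel of alpha rings (PSMA genes), which gate the entry, around beta rings (PSMB genes), which hold the proteolytic sites. The 19S cap recognises, unfolds and feeds in substrates with ATPases (PSMC genes) and non-ATPase subunits (PSMD genes). Other activators (PSME genes) can replace the cap, and dedicated chaperones build the particle without being part of it. In many cells the transcription factor NFE2L1 raises most proteasome genes together when proteasome activity is short, and interferon exchanges the catalytic beta subunits for inducible forms. The oxygen-regulated HIF-1 alpha protein, which the series title concerns, is itself degraded by the proteasome when oxygen is present.

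Promoters of 42 of the 48 genes were in the RefSeq table (GRCh38.p14), which gives 250 bases before and 50 after a start site on the gene's own strand. The promoters of PSME3 and PSMC2 are shown because these members had the smallest p in the replicated comparison, and that of PSMB9 because this interferon-inducible catalytic gene was nearly silent. Capitals mark matches to any of 6 motifs searched on both strands. TGANNNNGC is the core of the antioxidant response element bound by NFE2L1 and NFE2L2. CCAAT is a common promoter box. ACGTG is the core of the hypoxia response element. GAANNTTC is a heat shock element core and TGACGTCA the cAMP response element. CCGGAAG is a site of ETS factors. ACGTG and its complement overlap in CACGTG, and CCAAT can overlap the other motifs. PSME3 lies at chr17:42833147-42833446 on the plus strand, PSMC2 at chr7:103347393-103347692 on the plus strand and PSMB9 at chr6:32853942-32854241 on the plus strand.
PSME3: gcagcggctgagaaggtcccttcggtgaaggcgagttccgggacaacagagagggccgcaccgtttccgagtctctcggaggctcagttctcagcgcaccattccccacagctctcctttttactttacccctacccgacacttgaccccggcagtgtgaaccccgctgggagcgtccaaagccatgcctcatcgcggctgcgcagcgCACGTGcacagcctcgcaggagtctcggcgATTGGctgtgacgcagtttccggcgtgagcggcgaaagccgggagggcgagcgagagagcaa
PSMC2: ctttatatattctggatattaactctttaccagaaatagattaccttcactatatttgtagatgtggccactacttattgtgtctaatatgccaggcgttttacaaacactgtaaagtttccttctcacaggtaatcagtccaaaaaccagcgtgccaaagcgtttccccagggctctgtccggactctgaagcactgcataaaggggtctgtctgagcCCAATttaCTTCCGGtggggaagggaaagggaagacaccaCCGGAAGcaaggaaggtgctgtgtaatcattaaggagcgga
PSMB9: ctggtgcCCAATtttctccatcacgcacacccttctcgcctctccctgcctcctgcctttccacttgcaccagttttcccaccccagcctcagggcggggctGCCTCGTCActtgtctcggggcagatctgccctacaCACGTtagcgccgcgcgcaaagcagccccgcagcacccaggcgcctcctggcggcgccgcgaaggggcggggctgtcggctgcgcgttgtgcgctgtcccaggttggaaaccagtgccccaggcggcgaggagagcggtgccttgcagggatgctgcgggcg

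TGANNNNGC was found in 26 of the 42 proteasome promoters (61.9%) and in 42.1% of 27305 promoters of the same length, and CCGGAAG in 13 (31.0%) against 10.7%. CCAAT was in 19 (45.2%, against 35.7% of all) and ACGTG in 9 (21.4%, against 21.6%). Neither the heat shock element core nor the cAMP response element was found in any of the 42, while 6.87% and 1.98% of all promoters hold them. The PSME3 window has CCAAT in reverse and a CACGTG but no TGANNNNGC, that of PSMC2 has CCAAT and CCGGAAG on both strands, and that of PSMB5, not shown, has TGANNNNGC at 2 places. These matches describe the letters of the windows.

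Among the members that are subunits of the assembled particle, transcript levels spread widely, and the core median stood above the cap median. Levels are compared between genes as TPM, which RSEM scales for transcript length and library total, and the order is a description. With DMSO in the replicated set, PSMB4, a non-catalytic beta subunit, was highest at 584 ± 6.00 TPM (SD, n = 3), followed by PSMB1, another non-catalytic beta subunit, at 543 ± 29.3 TPM and PSMA7, of the alpha ring, at 412 ± 24.0 TPM. The DMSO libraries of these 3 genes did not overlap, at 577 to 588 TPM for PSMB4, 514 to 572 TPM for PSMB1 and 386 to 434 TPM for PSMA7, and with DHE they ranged over 549.7 to 629, 478 to 512 and 392.1 to 464 TPM. The lowest of the 31 measured core and cap members was PSMA5, of the same alpha ring, at 35.0 ± 0.553 TPM. Within the core the members thus differed up to 16.7-fold in TPM, and within the cap up to 5.12-fold. PSMB2, a beta subunit, was also low at 43.6 ± 4.03 TPM. Both places depend on the transcript lengths used for scaling. In CPM (counts scaled to a common library total, not to length) PSMA5 had 76.6 with DMSO, above PSMA1 at 65.3 and PSMA3 at 41.5. PSMB2 had 120 CPM, close to PSMB3 at 117. The median was 259 TPM over 14 members of the 20S core and 115 TPM over 17 members of the 19S cap, a ratio of 2.26. Of these core members 7 lay above the highest cap member, PSMD2, at 249 ± 19.8 TPM. The cap subunits SEM1 (SHFM1 in the files) and ADRM1 fall outside the name rule and are not in these values. In the DMSO replicates SEM1 had 1051, 954 and 941 TPM, above every core member, and ADRM1 had 194, 197 and 205.5 TPM. In the DMSO library of the dose set SEM1 had 371 TPM, below PSMB4 at 691, PSMA7 at 439 and PSMB3 at 413 TPM. The 7 assembly chaperones ranged from PSMG3, of the alpha ring chaperones, at 133 ± 7.88 TPM, down to PSMG4, another of them, at 15.2 ± 2.35 TPM. PSMG3 lay above the median of the 17 cap members. The 19S base chaperones PSMD5 and PSMD9 stood at 16.3 ± 1.41 and 21.7 ± 1.97 TPM. The spans of PSMG4 (13.1 to 17.7 TPM) and PSMD5 (15.2 to 17.9 TPM) overlapped, so their order is not resolved. The order of the 31 subunits was much the same in the DMSO library of the dose set (Spearman rho = 0.963, Pearson r of log2 TPM = 0.961, across genes that share their lengths and annotation in both).

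**Figure D1:**
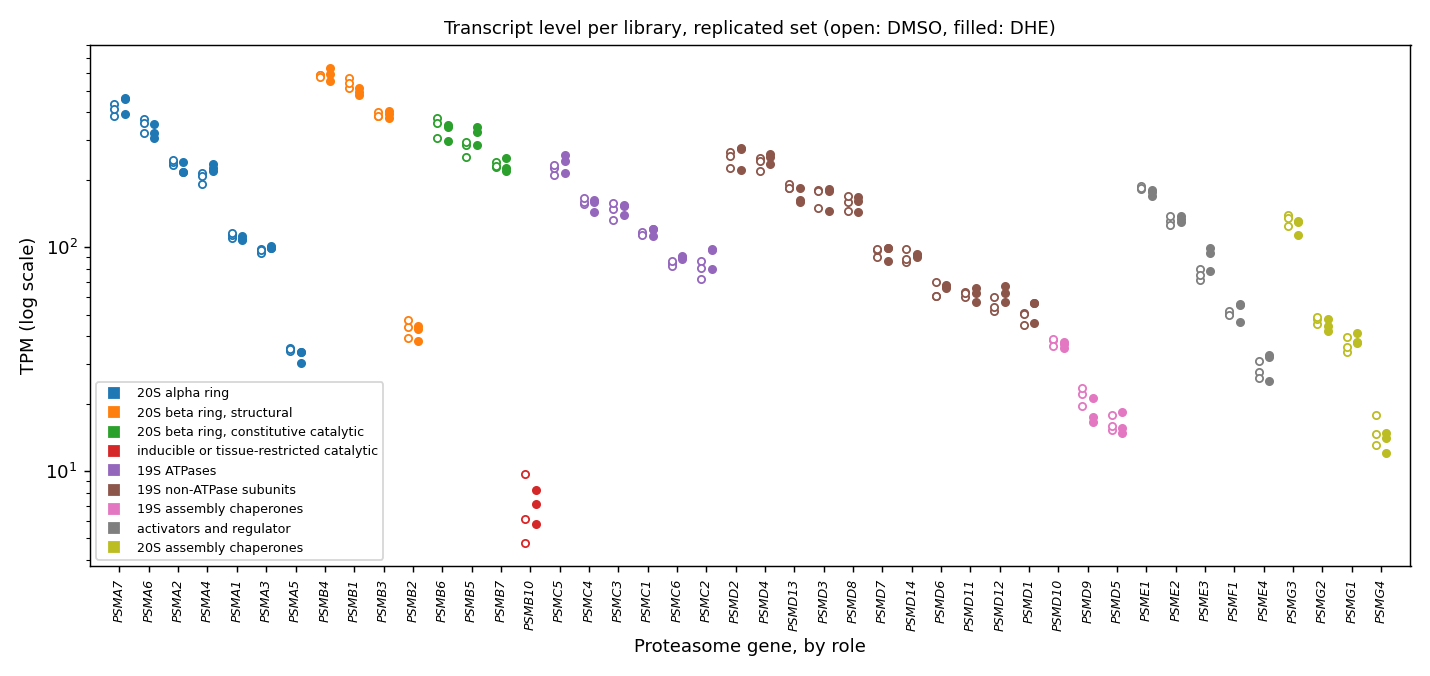
Transcript level in TPM on a log axis for the 44 proteasome genes with enough counts to test, ordered by role and level, with 1 point per library of the replicated set (open for DMSO, filled for DHE, n = 3 each). On this length-scaled measure PSMB4 and PSMB1 are at the top, PSMA5 and PSMB2 lie far below the other constitutive subunits of their rings, and PSMB10 is lowest.

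Catalytic subunit transcripts were nearly all of the constitutive kind in all 9 libraries. PSMB5, PSMB6 and PSMB7, the chymotrypsin-like, caspase-like and trypsin-like subunits, stood at 279 ± 22.0, 348 ± 36.7 and 233 ± 6.73 TPM with DMSO (SD, n = 3). Their interferon-inducible counterparts were at or near 0. PSMB8, which replaces PSMB5, had 1, 2 and 5 counts in the DMSO replicates, 3, 0 and 0 in the DHE replicates, and 7, 0 and 2 in the DMSO, high and low libraries of the dose set. PSMB9, which replaces PSMB6, had 1, 0 and 7, then 3, 0 and 0, then 1, 0 and 0 counts in the same order. A count of 0 allows up to 3 counts, or 0.0827 to 0.135 CPM (counts scaled to a common library total), and covers counting error only. PSMB10, which replaces PSMB7, was the inducible gene with a measurable level, at 6.11, 9.68 and 4.79 TPM with DMSO, 5.77, 7.13 and 8.26 with DHE, and 5.80, 6.22 and 7.26 in the DMSO, high and low libraries of the dose set. PSMB7 exceeded it 24.8-fold to 48.1-fold in TPM. PSMB11, of the thymus, and PSMA8, of the testis, had 0 counts in every library. PSMB8 and PSMB9 are neighbours on chromosome 6, 9512 bases apart, and PSMB8 has an antisense gene whose reads cannot be told apart without strand.

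DHE left most proteasome transcripts close to their DMSO level in the replicated set. Of the 44 members that passed the low-count filter 3 were called higher and 1 lower by the quasi-likelihood test of edgeR, with p-values adjusted by Benjamini and Hochberg over 14492 genes, which is 6.82% and 2.27% of the members, where 13.4% of all tested genes were called higher and 12.8% lower. The log2 fold changes of the 44 ran from -0.28 to 0.23, with a median of -0.01. That median was -0.05 without DHE replicate 1 (-0.007 for all genes) and 0.02 without DHE replicate 2 (-0.0009 for all genes). With all 6 libraries the median size was 0.07, against a median size of 0.18 over all tested genes. The median SE was 0.06 for the members and 0.09 for all tested genes. The sizes include this error and were not matched for level. The 95% interval of the fold change lay within 1.5-fold of no change for all 44 and within 1.25-fold for 39. The libraries of the 2 groups did not overlap for 5 members with DHE higher (11.4%) and 5 with DHE lower (11.4%), where 20.8% of all tested genes did so in each direction. The members took 0.475%, 0.480% and 0.482% of all counts with DMSO and 0.489%, 0.469% and 0.480% with DHE. DHE replicate 1 thus had the largest share and DHE replicate 2 the smallest, and the groups overlapped.

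**Figure D2:**
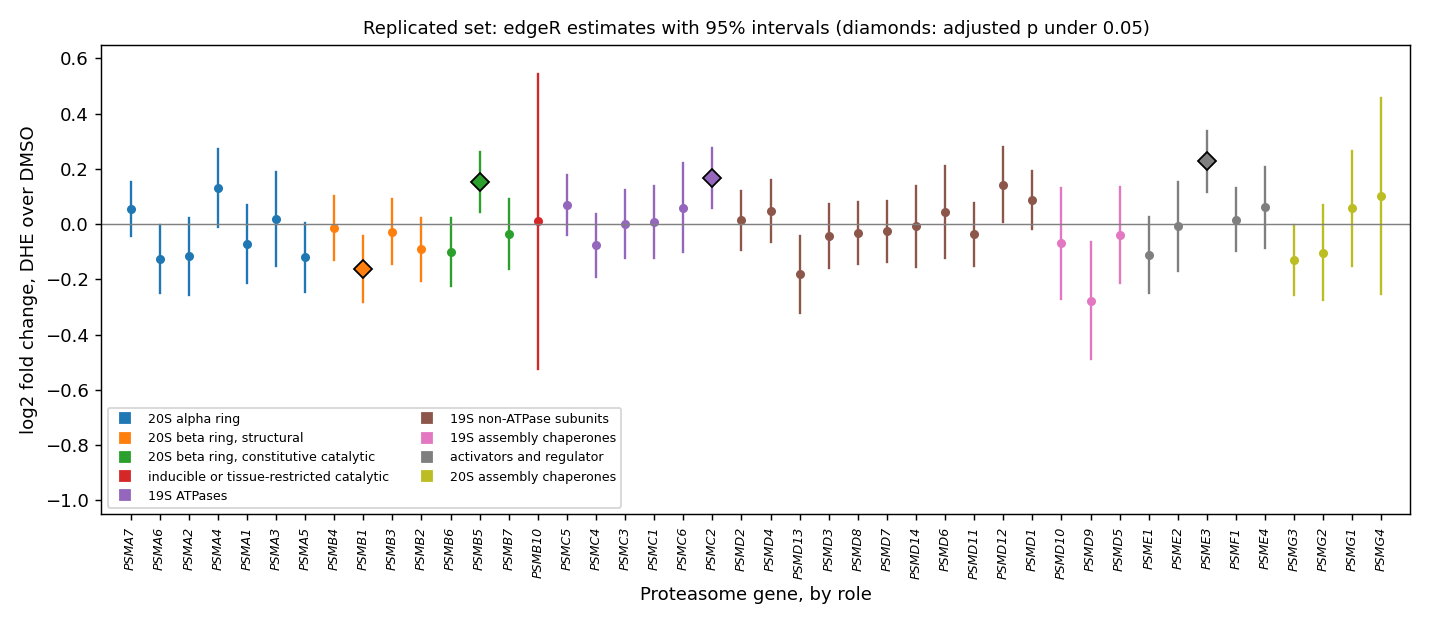
Log2 fold change of DHE over DMSO in the replicated set for 44 proteasome genes by role, with the edgeR estimate as a point and its 95% interval as a bar. The 4 diamonds are the genes with an adjusted p under 0.05, and the points lie between -0.28 and 0.23.

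PSME3, which encodes the nuclear activator PA28 gamma, showed the clearest change. Its 3 DMSO libraries held 149, 150.1 and 142 CPM (scaled by TMM factors) and the 3 DHE libraries 169.6, 166 and 181 CPM, so every DHE library was above every DMSO library. It rose 1.17-fold (95% interval 1.08 to 1.26, log2 fold change 0.23 ± 0.05 SE, edgeR adjusted p = 0.00602). PSMC2, an ATPase of the ring that unfolds substrates, held 114, 111 and 111 CPM with DMSO and 131, 122 and 125 CPM with DHE, again without overlap. It rose 1.12-fold (1.04 to 1.21, 0.17 ± 0.05, edgeR adjusted p = 0.0253). PSMB5, the subunit whose active site is the main target of clinical proteasome inhibitors, had 162, 169.8 and 176 CPM with DMSO and 190.1, 191 and 184 CPM with DHE. It rose 1.11-fold (1.03 to 1.197, 0.15 ± 0.05, edgeR adjusted p = 0.0393). The other 2 constitutive catalytic genes had estimates of -0.10 for PSMB6 (edgeR adjusted p = 0.211) and -0.03 for PSMB7 (adjusted p = 0.707). PSMB1 had 203, 209 and 204 CPM with DMSO and 197, 173 and 179.6 CPM with DHE, where DHE replicate 1 came closest to the controls. It fell to 0.893 of its DMSO level (0.823 to 0.970, -0.16 ± 0.05, edgeR adjusted p = 0.0442). Over all annotated transcripts in GRCh38 these genes lie on chromosome 17 from 42833397 to 42843760 (PSME3), chromosome 7 from 103347524 to 103369395 (PSMC2), chromosome 14 from 23025851 to 23035220 (PSMB5) and chromosome 6 from 170535120 to 170553307 (PSMB1). Only the call of PSME3 held with each of the 6 libraries left out in turn. The PSMC2 call ended without DMSO replicate 1, 2 or 3 or DHE replicate 3 (adjusted p 0.0554, 0.0767, 0.0830 and 0.0593). That of PSMB5 ended without DMSO replicate 1 or 2 or DHE replicate 2 or 3 (0.168, 0.0954, 0.0984 and 0.0601), and that of PSMB1 without any library except DHE replicate 1 (0.0951 to 0.185). On a log2(TPM + 1) scale limma called 3.43% of all genes higher and 3.09% lower, and none of the 44 (1 at an unadjusted p under 0.05, and adjusted p = 0.184 for PSME3), and the TPM of PSME3 overlapped between groups, at 71.6, 79.7 and 75.3 with DMSO and 78.0, 94.1 and 99.5 with DHE.

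**Figure D3:**
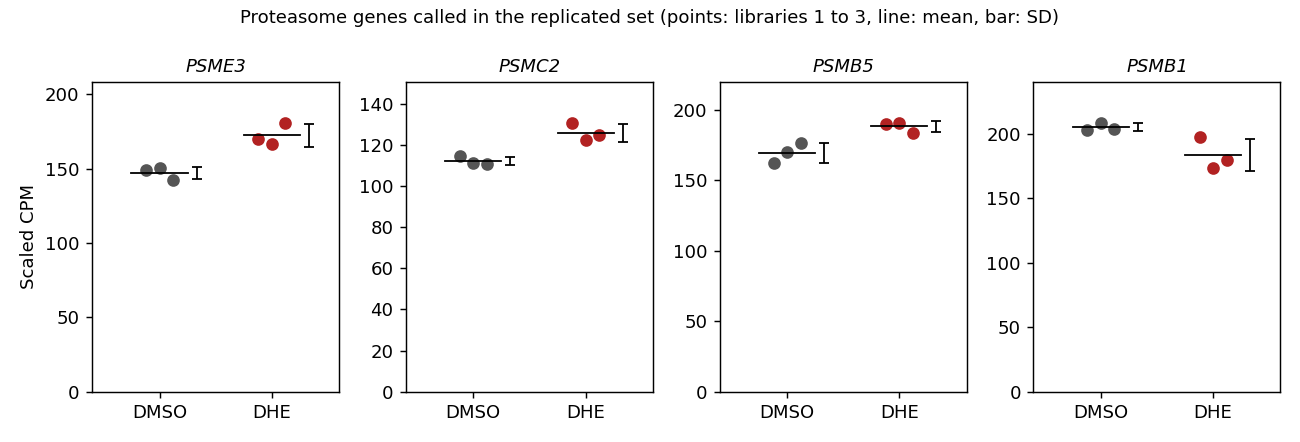
Scaled CPM from 0 of the 4 proteasome genes called in the replicated set, with 1 point per library in the order of the replicate numbers, the mean as a line and the SD as a bar beside it (n = 3). The DHE points of PSME3, PSMC2 and PSMB5 lie above all DMSO points and those of PSMB1 below them.

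By role, no class of the particle had more than 1 gene called with DHE when edgeR used all 6 libraries. Without DHE replicate 1 it called PSMA2 and PSMA6, both of the alpha ring, lower, as it did 13.2% of all genes. Classes held 1 to 11 tested genes, and edgeR called 13.4% of all tested genes higher and 12.8% lower. Counts this small do not set a class apart from all genes. An unadjusted edgeR p under 0.05 was reached by 9 of the 44 members (20.5%), against 37.7% of all tested genes. In the alpha ring edgeR called 0 of 7 measured genes, with 1 at an unadjusted p under 0.05 and 0 by DESeq2. Their median log2 fold change was -0.07, and the largest estimate was that of PSMA4 at 0.13 ± 0.07 (edgeR adjusted p = 0.164), whose DMSO libraries held 114, 117 and 115 CPM and DHE libraries 140.4, 123 and 116 CPM. PSMA7 was 183, 188 and 185 CPM with DMSO and 193, 193 and 191 CPM with DHE, a gap without overlap that stayed small (0.06 ± 0.05, adjusted p = 0.400). Of the 4 non-catalytic beta genes PSMB1 was called, and PSMB4, the most abundant, had an estimate of -0.01 ± 0.05 (adjusted p = 0.877). Of the 6 ATPase genes only PSMC2 was called, and the others ran from -0.08 to 0.07. Among 11 non-ATPase cap genes edgeR called 0 (2 at an unadjusted p under 0.05), with a median of -0.01. The largest estimate was that of PSMD13, a lid subunit, with 176, 167 and 162 CPM against 159, 133 and 154 CPM (-0.18 ± 0.06, edgeR adjusted p = 0.0556).

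Of the 7 assembly chaperones edgeR called none (2 at an unadjusted p under 0.05, and 1 by DESeq2), and of the 5 activators and regulators it called PSME3 alone. Of all tested genes, edgeR called 13.4% higher and 12.8% lower, and 37.7% had an unadjusted p under 0.05. PSMD9, a chaperone of the 19S base, had 26.5, 27.2 and 29.0 CPM with DMSO and 24.6, 24.3 and 19.4 CPM with DHE, so all DHE libraries were lower. Its estimate of -0.28 ± 0.10 was the largest of the members and did not pass (edgeR adjusted p = 0.0534). DESeq2 called both PSMD13 (adjusted p = 0.0409) and PSMD9 (adjusted p = 0.0458), as did limma-voom, and so did edgeR without DHE replicate 1. The calls thus split as 3 higher and 3 lower with DESeq2 or limma-voom, as 2 higher and 3 lower with upper-quartile factors in edgeR, and as 3 higher and 5 lower without DHE replicate 1, which added PSMA2 and PSMA6. Of all genes the same settings called 13.5% higher and 12.5% lower with DESeq2, 13.5% and 13% with limma-voom, 11.9% and 14.2% with upper-quartile factors, and 13.8% and 13.2% without DHE replicate 1. PSMD5 and PSMD10, the other base chaperones, were at -0.04 and -0.07. Of the 4 alpha ring chaperones edgeR called 0 (1 at an unadjusted p under 0.05, and 0 by DESeq2). PSMG3 had 47.4, 47.5 and 49.7 CPM against 45.2, 43.5 and 43.6 CPM (-0.13 ± 0.06, edgeR adjusted p = 0.129), and PSMG4 had 4.08, 3.49 and 3.73 CPM against 3.91, 3.88 and 4.32 CPM (0.10 ± 0.16). Among the other activators PSME1 and PSME2, the interferon-inducible pair that forms PA28 alpha beta and whose genes lie 4402 bases apart on chromosome 14, were at -0.11 (adjusted p = 0.220) and -0.01 (adjusted p = 0.953). PSME4, the activator PA200, was at 0.06 and PSMF1, the regulator PI31, at 0.02. PSMB10 was at 0.01, with the widest interval of the members, 0.696-fold to 1.46-fold.

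Genes that act around the proteasome are given by list, against the 13.4% of all tested genes called higher and the 12.8% called lower. Of 9 further parts and assembly factors 1 rose and 0 fell, ECPAS (KIAA0368 in the files), a scaffold that holds core and cap together (log2 fold change 0.18 ± 0.06, edgeR adjusted p = 0.0401). POMP, which matures the core, had an estimate of 0.13 (adjusted p = 0.249). Of 4 genes that govern proteasome transcription 2 rose and 1 fell. NFE2L1, at 318 ± 9.39 CPM with DMSO and 353 ± 12.5 CPM with DHE (SD, n = 3), rose 1.11-fold (edgeR adjusted p = 0.0414) and its relative NFE2L2 rose 1.12-fold (adjusted p = 0.0329). NGLY1, the glycanase that NFE2L1 protein needs to become active, fell by 0.51 on the log2 scale, from 90.1 ± 3.06 to 63.0 ± 3.98 CPM (adjusted p = 6.79e-05). DDI2, the protease that cleaves NFE2L1, had an estimate of 0.15 (adjusted p = 0.350). Of 19 genes for shuttles, the segregase and ubiquitin 4 rose and 1 fell. The autophagy receptor gene SQSTM1 rose 1.26-fold (adjusted p = 5.03e-04) and the shuttle gene UBQLN2 1.38-fold (adjusted p = 0.00160). Of 13 measured genes of class I peptide supply, which uses proteasome products, 1 rose and 7 fell, with a median of -0.29. HLA-B fell by 0.61 and HLA-E by 0.32 on the log2 scale (edgeR adjusted p = 4.80e-04 and 6.28e-04), though these genes are similar in sequence and reads may be split between them. The medians of the other 3 lists were 0.06, 0.15 and 0.08.

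In the dose set proteasome transcripts stood above the DMSO library in both DHE libraries, more so in the library labelled low. With 1 library each there is no error between cultures and no test. Both ratios share the same DMSO library, and intervals are exact binomial 95% intervals of the counts, which cover counting error only. The ratio to DMSO was above 1 for 35 of 44 members in the library labelled high (79.5%, against 50.4% of 13468 genes) and for 39 of 44 in that labelled low (88.6%, against 50.8%). The median log2 ratio of the members was 0.11 for high and 0.22 for low, where that of all genes was 0.00 and 0.01. The changes were small: 0 of 44 members reached 1.5-fold up in the library labelled high (4.01% of all genes did) and 2 of 44 in that labelled low (against 9.5% of all genes). No member was 1.5-fold lower in either library, where 8.92% of all genes were in high and 14.3% in low. Members took 0.382% of counts with DMSO, 0.438% in high and 0.476% in low. The DMSO share thus lay below the 0.475% to 0.482% of the replicated DMSO libraries.

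Among the members, median ratios were higher for the 19S cap than for the 20S core, a contrast that was not tested. All 6 ATPase genes were above DMSO in both libraries, with median log2 ratios of 0.18 for high and 0.28 for low. Of 11 non-ATPase cap genes 10 were above DMSO in high and 11 in low (medians 0.22 and 0.27). PSMD14, the deubiquitinase of the lid, stood at 46.1 CPM with DMSO, 60.9 in high and 72.9 in low, 1.32-fold (1.22 to 1.42) and 1.58-fold (1.47 to 1.70). PSMD12, a lid subunit, went from 35.9 to 48.7 and 53.1 CPM, 1.36-fold (1.24 to 1.48) and 1.48-fold (1.36 to 1.61). The ATPase gene PSMC1 was at 47.5, 58.5 and 66.9 CPM, 1.23-fold and 1.41-fold higher. PSMG1, an alpha ring chaperone, had the highest ratio in low, 1.65-fold (1.38 to 2.0), from 7.61 CPM with DMSO to 9.86 in high and 12.6 in low, which rests on 195, 252 and 293 counts. In the 20S core the medians over 14 genes were 0.04 and 0.10, against 0.19 and 0.27 over the 17 cap members. Outside the name rule, the cap gene SEM1 had log2 ratios of -0.11 in high and -0.15 in low, and ADRM1 of 0.17 and 0.31. PSMB3, a beta subunit, was at 137 CPM with DMSO, 127 in high and 123 in low, 0.930-fold and 0.898-fold, and PSMB4 at 286, 274 and 277 CPM, 0.958-fold and 0.971-fold. PSMA2 and PSMA7, of the alpha ring, were at 0.959-fold and 0.961-fold in low. Scaled by library totals alone, PSMA2 and PSMA7 in low and PSMB4 in both libraries came to lie above 1, and so did PSMB3 on the log2(TPM + 1) scale.

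PSME3 was again among the most raised members. It stood at 100.1 CPM with DMSO, 143 in high and 146 in low, 1.42-fold (1.35 to 1.5) and 1.46-fold (1.39 to 1.54). PSME1 was the lowest, at 46.2 CPM with DMSO and 37.6 in both DHE libraries, 0.814-fold in each (0.747 to 0.887 in high and 0.745 to 0.889 in low). PSME2, its partner, was at 1.0-fold and 1.03-fold. Between the DHE libraries the interval of low over high lay above 1 for 19 members and below 1 for 2. No share of all genes was computed for these intervals, which cover counting error only, so the counts do not set the members apart. The ratio of low over high was 1.196-fold (1.12 to 1.28) for PSMD14 and 1.03-fold (0.979 to 1.08) for PSME3. Scaled by library totals alone, which shifts all genes of a library alike, the median of all genes moved to 0.08 in high and 0.15 in low. With that shift left in, 41 and 42 of the 44 members lay above 1, against 59.5% and 63.2% of all genes.

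**Figure D4:**
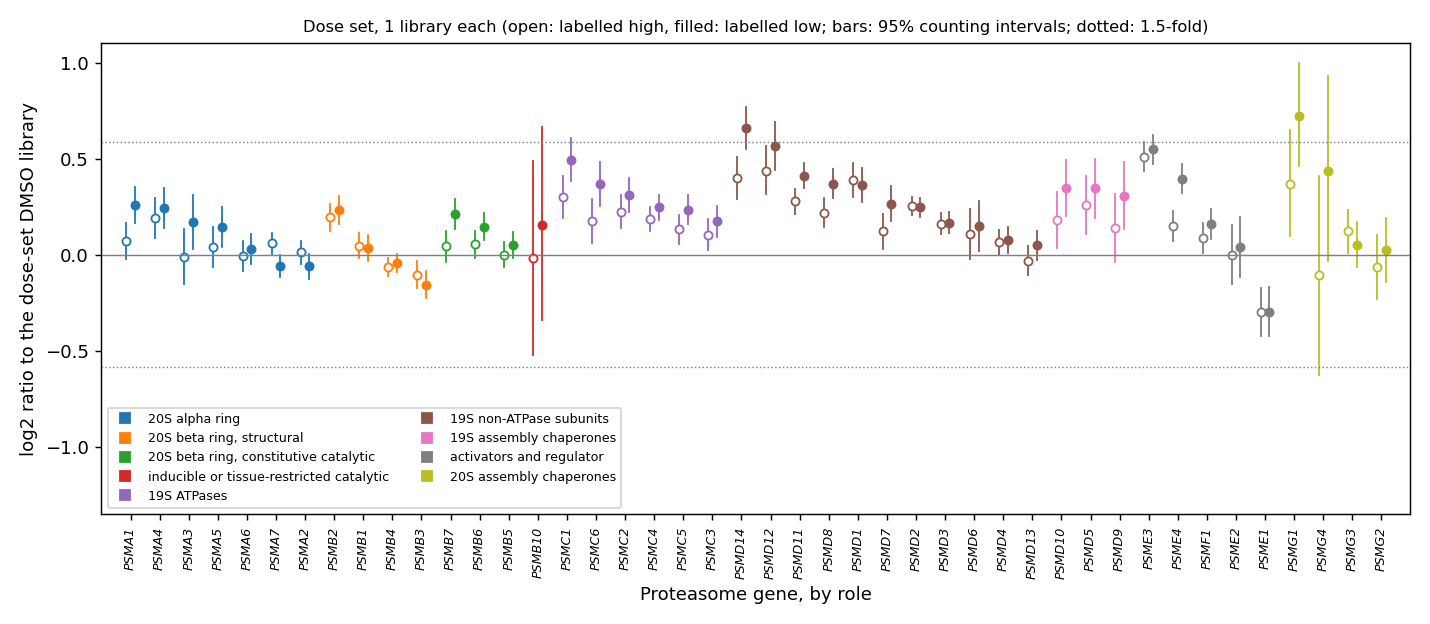
Log2 ratio to the DMSO library of the dose set for 44 proteasome genes by role, with open points for the library labelled high and filled points for that labelled low, 95% counting intervals as bars and dotted lines at 1.5-fold. Cap genes lie above 0 in the library labelled low, PSME3 is near the upper line in both libraries, and PSME1 is the lowest in both.

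The libraries held 22167516 to 36267216 counts. The first DHE replicate was the odd one of its group, at 30.2 and 35.8 chi-square units per gene from the other two, which differed by 5.58 and DMSO replicates by 9.07 to 15.6. The hepatocyte markers, 9 genes such as ALB and APOA1, summed to 12101 to 12980 TPM with DMSO and 10711 to 12082 with DHE, and to 36192, 18836 and 10421 TPM in the DMSO, high and low libraries of the dose set. The list did not move one way in the replicated set: 5 of the 9 rose (APOA1, APOB, TTR, FGB and HNF4A) and 3 fell (ALB, AFP and SERPINA1), with a median log2 fold change of 0.28. In the dose set the sum was lower where the median proteasome ratio was higher, and its part in the ratios was not tested. Of 8 leukocyte markers 5 stayed under 1 TPM in all libraries, and the 8 summed to 114 to 126 TPM with DMSO and 69.4 to 74.2 with DHE (160, 148 and 107 in the dose set). They rested on CD68 and LYZ, and PTPRC, which defines leukocytes, was at most 0.06 TPM. Of 4 endothelial and 6 fibroblast markers 3 each stayed under 1 TPM, with sums of at most 1.82 and 47.3 TPM. The part of these markers in the results was not tested.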

How the data were processed

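RNA was sequenced from 9 libraries of Hep3B cells under hypoxia. The authors deposited RSEM gene tables with expected counts and, beside them, TPM values, per the file headers, and the build was GRCh38, per the submitters' processing notes. RSEM version, annotation and strand setting: not given in the sources used here. The deposited expected counts were rounded to whole numbers and tested with edgeR 4.0.16 (TMM factors, filterByExpr, quasi-likelihood test, adjusted p threshold 0.05) in R 4.3.3, on the 6 libraries of the replicated set, whose biological coefficient of variation was 8.37%. DESeq2 1.42.0 and limma 3.58.1 served as alternatives. In the dose set, genes with at least 20 counts in 1 of its 3 libraries were compared by the log2 ratio of their CPM after TMM scaling (prior count 2). TPM served for levels and for limma on log2(TPM + 1). Reads shared with processed pseudogenes, the neighbouring or antisense genes of members and HLA paralogs make small differences uncertain. The procedure was tested on simulated data for DHE against DMSO over 14342 genes, with 50 genes changed per size. It recovered 50% of 1.3-fold changes, 62% of 1.5-fold changes, 84% of 2-fold changes and 86% of 3-fold changes. Of its 155 calls 14 were false. The changed genes were drawn over all levels, and were far fewer than the 1945 higher and 1858 lower genes called in the data. The adjusted p threshold was therefore harder to pass, and these rates do not give the power for the members. The members, lists and rules were chosen with earlier results of these data known. The rule named members called in the replicated set, the 3 highest and 3 lowest by TPM, the inducible catalytic genes, the largest estimate of each role, the 5 highest and 5 lowest ratios in the library labelled low, and up to 3 called genes per other list by smallest p. Single-gene results of 2 genes that the rule named in those lists are not reported here. Other members, POMP, DDI2, SEM1 and ADRM1 were named after their values were seen. Alternatives covered scaling, filters, tools, TPM offsets, each library left out and a block on the replicate number. The fit without both libraries numbered 1 was added after seeing the data.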

Additional observations from a re-analysis of the deposited data

Results flagged for a closer look

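For 3 members the estimates of the replicated set and the dose set had opposite signs. All 3 DHE libraries lay below all 3 DMSO libraries in the replicated set, and both DHE libraries of the dose set lay above their DMSO library. Of all genes, 20.8% of those tested met the first condition. In the dose set 50.4% of 13468 genes lay above DMSO in high and 50.8% in low. The share of all genes that met both conditions was not computed, so the count of 3 does not set the members apart. The difference between the sets was not tested, and neither set has a stated concentration. PSMB1, a beta ring subunit, had a log2 fold change of -0.16 in the replicated set and ratios of 1.03-fold (0.987 to 1.08) in the library labelled high and 1.02-fold (0.977 to 1.07) in that labelled low, whose counting intervals include 1. PSMD9, the 19S base chaperone, was at -0.28 in the replicated set, and at 1.102-fold (0.976 to 1.245) in high and 1.24-fold (1.098 to 1.40) in low, where the interval for low lies above 1. PSMG3, an alpha ring chaperone, was at -0.13 in the replicated set, and at 1.09-fold (1.01 to 1.18) in high and 1.04-fold (0.958 to 1.12) in low. Of these, PSMB1 passed the test in the replicated set and the other 2 did not.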

How the results depend on the processing

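The count of 3 members called higher stayed at 3 with DESeq2, limma-voom, RLE factors, library totals, both other count filters and the replicate block, was 2 with upper-quartile factors, 1 without both libraries numbered 1, and 0 with limma on TPM under all 3 of its settings (1 member each at an unadjusted p under 0.05). The count of 1 called lower was 3 with DESeq2, limma-voom, upper-quartile factors, no low-count filter, a filter of 5 CPM and the replicate block, 5 without both libraries numbered 1, and 0 with limma on TPM under all 3 settings. With each library left out in turn, 1 to 3 members were called higher and 0 to 5 lower. Of all genes, 12.3% were called higher and 11.6% lower without both libraries numbered 1, 0.607% to 3.43% higher and 0.498% to 3.09% lower with limma on TPM, 10.2% to 16.5% lower where 3 members were, and 9.07% to 13.8% higher and 8.48% to 13.2% lower with a library left out. The replicate block gave PSMD13 and PSMD9 adjusted p of 0.0167 and 0.0368, against 0.0556 and 0.0534 without it. Libraries with the same number correlated at 0.09, 0.05 and -0.05 in their deviations, and not every library correlated best with its own number. With 3 libraries a group, correlations this small neither show nor exclude a pairing by number. In the dose set 1 member reached 1.5-fold higher in the library labelled high and 5 in that labelled low, both by library totals (5.56% and 15% of all genes) and by log2(TPM + 1) (3.54% and 11.8%), against 0 and 2. The log2 ratio turned positive for PSMA7 in low (0.0842 by totals, 0.10 by TPM), for PSMB3 by TPM (0.0205 in high, 0.0101 in low) and for PSMB4 in high (0.0144 by totals, 0.0574 by TPM) and in low (0.0987 and 0.119), and for PSMA2 in low (0.0813 and 0.101). The cause of these shifts was not tested. PSMB8 and PSMB9 had at most 7 counts and were not tested. The fold changes of PSMB10 and PSMG4 had the widest intervals of the members, and the DMSO libraries of PSMB10 ranged from 2.06 to 4.05 CPM.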
